A study of Mus musculus with 54 samples.

Results

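Sim2, Onecut2, Lhx2 and Pou4f1 are 4 transcription factor genes whose transcripts were low to absent in endstage DKO_EE tumours and present in endstage DKO tumours. They were chosen from the measured values, because both endstage settings, intact and castrated, showed them far lower in DKO_EE than in DKO. They are 4 of the 16772 genes measured by bulk RNA sequencing of mouse prostate tumour tissue, and all 4 were measured in all 11 groups of the study. The differences that chose them are therefore described below without a test, and the 4 genes are tested only in comparisons between other groups. Other genes are also tested between the endstage DKO and DKO_EE animals that made the choice.

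All animals were mice of engineered tumour models. DKO and TKO are the submitters' names of 2 models, whose alleles, promoters and strains are not given in the sources used here. DKO_EE and DKO_EP are DKO mice that the series describes as having Ezh2 deletions, without saying what EE and EP mean. DKO_EE and DKO_EP mice thus carry the DKO alleles, and whether TKO mice carry them is not stated there. At 12 weeks of age, 4 intact DKO, 4 DKO_EE and 4 DKO_EP mice were sampled. Intact endstage mice were 3 DKO of 35 to 46 weeks, 8 DKO_EE of 28 to 42 weeks and 3 DKO_EP of 39 to 52 weeks. Mice castrated at 12 weeks and sampled at endstage were 4 DKO of 39 to 99 weeks, 5 DKO_EE of 35 to 59 weeks and 5 DKO_EP of 34 to 37 weeks. Castrated TKO mice received vehicle (4 mice, 15 to 19 weeks) or the Ezh2 inhibitor CPI1688 (4 mice, 18 to 19 weeks).

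Sim2 encodes a basic helix-loop-helix PAS protein that pairs with ARNT or ARNT2 to bind DNA, and it is known from development of the nervous system. Onecut2 encodes a CUT homeodomain activator known from liver, pancreas and neurons, and it has been studied as a driver of androgen-independent and neuroendocrine prostate cancer. Lhx2 encodes a LIM homeodomain factor of forebrain, eye and hair follicle stem cells, which acts with the LDB cofactors. Pou4f1, also called Brn3a, encodes a POU homeodomain factor of sensory neurons. Ezh2 is the methyltransferase of Polycomb repressive complex 2, whose mark on histone H3 is known for keeping developmental factor genes of this kind silent.

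The bases just upstream of the starts of Lhx2 and Pou4f1 are shown because Polycomb repressive complex 2 is known to act at gene starts rich in the dinucleotide CG. The windows of Sim2 and Onecut2 were not analysed here, so this pair does not stand for all 4. The sequences are from RefSeq (GRCm38.p6), at chr2:38339031-38339280 on the plus strand for Lhx2 and chr14:104468000-104468249 on the minus strand for Pou4f1, each 250 bases long and in lower case with every CG in capitals.
Lhx2 promoter: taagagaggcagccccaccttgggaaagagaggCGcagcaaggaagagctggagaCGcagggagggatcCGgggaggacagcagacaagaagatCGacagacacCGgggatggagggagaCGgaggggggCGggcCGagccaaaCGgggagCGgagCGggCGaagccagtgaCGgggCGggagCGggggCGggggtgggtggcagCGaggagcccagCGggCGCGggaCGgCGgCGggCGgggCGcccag
Pou4f1 promoter: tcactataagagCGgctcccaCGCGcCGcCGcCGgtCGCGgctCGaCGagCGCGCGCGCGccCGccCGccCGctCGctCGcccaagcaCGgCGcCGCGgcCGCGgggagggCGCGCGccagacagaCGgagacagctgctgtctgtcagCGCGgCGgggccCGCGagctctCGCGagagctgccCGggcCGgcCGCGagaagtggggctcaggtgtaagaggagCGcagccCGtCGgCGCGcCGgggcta
The CG count, read on the strand shown and equal on both strands, was 25 for Lhx2 with 72.8% G or C, and 47 for Pou4f1 with 78.0% G or C. The median over all 32851 windows of the same length was 6 CG, and 10.7% of them held at least as many as Lhx2 and 0.25% at least as many as Pou4f1. A further annotated start of Lhx2, at chr2:38351058-38351307, held 24 CG, which 12.0% of windows reached. These counts are a description of the windows, and no chromatin mark was measured.

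The genes lie on 4 different chromosomes of GRCm38. Sim2 spans chromosome 16 from 94084931 to 94127032, Onecut2 spans chromosome 18 from 64340020 to 64400987, Lhx2 spans chromosome 2 from 38339281 to 38369733, and Pou4f1 spans chromosome 14 from 104461676 to 104467999. Pou4f1 is on the minus strand and the other 3 are on the plus strand. Lhx2 overlaps the antisense genes Gm27197 and Gm13584, and since the sources used here do not say whether strand was used in counting, reads of these genes and of Lhx2 cannot be told apart. The other 3 overlap no annotated gene.

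Values are log2 of the deposited normalized count plus 1, per animal, and read numbers are those recovered from the steps of the deposited values. Libraries held 3687048 to 9741808 reads over the table. Animals are the replicates, and 6 animals had 2 libraries, which were averaged. In bulk tissue, fewer cells of a type and less RNA per cell cannot be told apart. As a check of the labels, the mean of Ezh2 itself at intact endstage was 8.28 in DKO_EE, against 9.61 in DKO and 9.39 in DKO_EP, and limma called it lower (adjusted p = 0.0194). In castrated mice it was 8.46 in DKO_EE, 9.36 in DKO and 9.17 in DKO_EP, a difference from DKO that did not pass (adjusted p = 0.0831 by limma). There DKO replicate 2 at 8.43 lay within the DKO_EE range, and DKO_EE replicate 2 reached 9.19, above DKO_EP replicate 3 at 8.58. The deleted gene's transcript was thus still detected in DKO_EE. Neuroendocrine genes were high in all 3 genotypes at endstage, except in castrated DKO replicate 2. The mean of 15 neuroendocrine genes, among them Chga, was 9.48 to 9.67 in intact DKO, 9.12 to 10.28 in intact DKO_EE and 8.79 to 9.69 in castrated DKO_EE libraries, with none of the 15 at 0 throughout a group. In castrated DKO that mean was 3.51 in replicate 2 and 8.79 to 9.66 in the other animals. The mean of 12 luminal epithelial genes was 7.86 to 9.12 in intact DKO, 7.84 to 9.29 in intact DKO_EE and 7.93 to 8.45 in castrated DKO_EE libraries. Of these 12, only the prostate secretory gene Pbsn was at 0 in every library of the 6 endstage DKO, DKO_EE and DKO_EP groups.

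**Figure D1:**
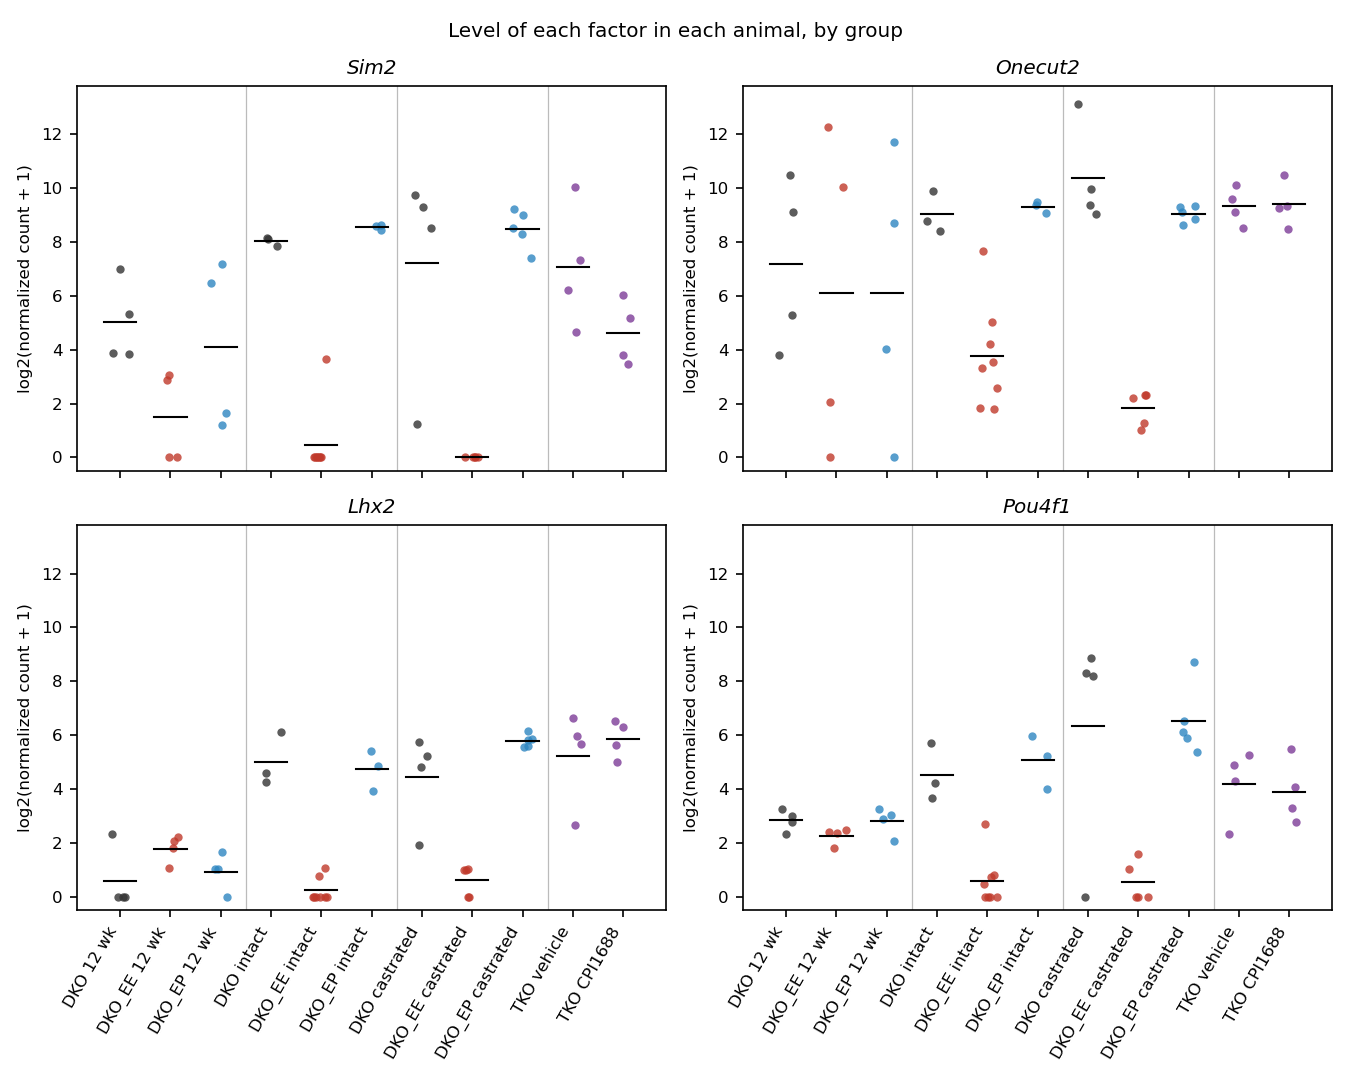
Each point is 1 animal, the vertical axis is log2 of the normalized count plus 1, and the black line is the mean of the group on the horizontal axis. Red points (DKO_EE) lie at or near 0 for Sim2, Lhx2 and Pou4f1 at both endstage settings, with single animals at 3.67 (Sim2) and 2.69 (Pou4f1), where DKO (black) and DKO_EP (blue) lie at 3.66 or above except for 1 castrated DKO animal.

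Sim2 had the largest difference of log2 means at intact endstage, although over all libraries its ratio of pooled reads was below that of Lhx2. In intact endstage DKO animals its log2 values were 8.11, 7.86 and 8.16, from 310, 252 and 318 reads. In the 8 intact DKO_EE animals the lowest and the median value were 0 and the highest was 3.67. That one animal had 2 libraries with 1 and 53 reads, and the other 10 DKO_EE libraries held no Sim2 read. The groups did not overlap, and the means of 8.04 ± 0.16 in DKO (SD, n = 3) and 0.46 ± 1.30 in DKO_EE (SD, n = 8) differed by -7.58. In castrated DKO_EE tumours none of the 5 libraries held a read, against log2 values of 9.32, 1.25, 9.74 and 8.53 in castrated DKO (mean 7.21 ± 4.0, SD, n = 4). Summed over libraries, Sim2 was at least 689-fold higher in castrated DKO than in DKO_EE, taking 3 reads over the DKO_EE group as the limit that a count of 0 allows, and at intact endstage it was 50.8-fold higher (95% interval 38.6 to 68.2). Without the library of 53 reads, 1 DKO_EE read remained and that ratio was 2484 (445 to 98205). These and the following intervals are exact and cover counting error only.

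Onecut2 had more reads than the other 3 factors in intact DKO, and it also kept the most in intact DKO_EE. Its intact endstage values were 9.91, 8.78 and 8.42 in DKO, and in DKO_EE the lowest was 1.81, the median 3.43 and the highest 7.67. The animals did not overlap, although among single libraries DKO_EE library 6 at 8.44 lay above DKO replicate 3 at 8.42. The means of 9.04 ± 0.78 (SD, n = 3) and 3.75 ± 1.94 (SD, n = 8) differed by -5.28. In castrated DKO_EE the 5 animals had 2.33, 2.32, 1.03, 2.21 and 1.26, from 1 to 4 reads each, whereas castrated DKO had 9.40, 13.14, 9.99 and 9.03. The means of 10.39 ± 1.88 in DKO (SD, n = 4) and 1.83 ± 0.63 in DKO_EE (SD, n = 5) differed by -8.56. The pooled ratio of DKO to DKO_EE was 12.3 (11.1 to 13.6) at intact and 915 (535 to 1720) at castrated endstage. In intact DKO_EE 222 reads, more than in any other library, came from replicate 6, and without that library the ratio was 20.97 (18.5 to 23.9). Most of the castrated DKO reads came from replicate 2, with 6547 of 8260, and without that animal the castrated ratio was 247.

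Lhx2 was a low transcript in every group. It had 77, 20 and 26 reads in the 3 intact DKO animals, at log2 values of 6.12, 4.27 and 4.60, and 3 reads in all 12 intact DKO_EE libraries together. In the DKO_EE animals the lowest and the median value were 0 and the highest was 1.07. The means of 5.0 ± 0.99 (SD, n = 3) and 0.23 ± 0.44 (SD, n = 8) differed by -4.77. The pooled ratio was 128 (42.7 to 628), whose width shows how few reads it rests on. It was 72.1 (23.2 to 362) without DKO replicate 1 and 362 (63.8 to 14414) without DKO_EE library 12, which left 1 read. In castrated mice DKO had 5.23, 1.91, 4.82 and 5.76, and DKO_EE had 1.0, 1.0, 1.03, 0 and 0, from at most 1 read each. The means of 4.43 ± 1.72 (SD, n = 4) and 0.61 ± 0.55 (SD, n = 5) differed by -3.82, and the pooled ratio was 47.1 (15.6 to 232). The groups did not overlap, but the lowest DKO animal had 2 reads, so that gap rests on 1 read.

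Pou4f1 followed the same order. Intact DKO animals had 5.69, 4.20 and 3.66, from 57, 19 and 13 reads, and in intact DKO_EE the lowest value was 0, the median 0.24 and the highest 2.69. Of the 16 Pou4f1 reads in DKO_EE, 12 came from 1 of the 2 libraries of a single animal. That library, replicate 12, had a value of 4.43, above DKO replicates 2 and 3. The means of 4.52 ± 1.05 (SD, n = 3) and 0.58 ± 0.92 (SD, n = 8) differed by -3.93. Castrated DKO animals had 8.20, 0, 8.86 and 8.30, and DKO_EE animals had 0, 1.59, 1.03, 0 and 0. The castrated groups overlapped, because DKO replicate 2 held no Pou4f1 read, and the means of 6.34 ± 4.24 (SD, n = 4) and 0.52 ± 0.74 (SD, n = 5) differed by -5.81. The pooled ratio was 17.3 (10.1 to 31.6) at intact and 402 (137 to 1955) at castrated endstage. The intact ratio was 9.40 (5.01 to 18.3) without DKO replicate 1 and 65.5 (24.7 to 246) without DKO_EE library 12. The castrated ratio was 939 (168 to 37123) without DKO_EE replicate 2, which left 1 read.

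Castrated DKO replicate 2, an animal of 99 weeks, stood apart for all 4 factors. It had the lowest Sim2, Lhx2 and Pou4f1 of its group and the highest Onecut2. In the same library the mean of the 15 neuroendocrine genes was 3.51, against 8.79 to 9.66 in the other 3 castrated DKO animals, Chga was 3.59, and the mean of 11 basal epithelial genes was 11.54, against 4.58 to 5.88. The part of this tissue makeup in its values was not tested. Without it the castrated differences of DKO_EE from DKO were -9.19 for Sim2, -7.64 for Onecut2, -4.66 for Lhx2 and -7.93 for Pou4f1.

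DKO_EP tumours, which the series also describes as having an Ezh2 deletion, kept all 4 factors. How that deletion differs from the one in DKO_EE is not given in the sources used here. At intact endstage the DKO_EP means were 8.56 ± 0.10 for Sim2, 9.32 ± 0.21 for Onecut2, 4.73 ± 0.75 for Lhx2 and 5.07 ± 1.0 for Pou4f1 (SD, n = 3), and DKO_EP minus DKO was 0.52, 0.28, -0.27 and 0.55. In castrated mice the DKO_EP means were 8.49 ± 0.72, 9.05 ± 0.31, 5.80 ± 0.24 and 6.52 ± 1.29 (SD, n = 5) in the same order, and the differences from DKO were 1.29, -1.34, 1.37 and 0.18. No castrated DKO_EP animal overlapped a castrated DKO_EE animal for any of the 4. The same held at intact endstage with the libraries of 1 animal averaged. Between single intact libraries, Pou4f1 in DKO_EE library 12 at 4.43 lay above DKO_EP libraries 2 at 3.87 and 5 at 4.0. How many of all genes lacked overlap was not counted, so this separation has no background beside it. These comparisons share the endstage DKO or DKO_EE animals that chose the genes, so they carry no test. Among the 5 intact DKO_EP libraries, the mitochondrial leucyl-tRNA synthetase gene Lars2 took 14.2% to 21.6% of reads. It took over 10% in 5 of 12 intact DKO_EE libraries and at most 0.0258% in intact DKO. The 5 DKO_EE libraries of that kind held 0 or 1 Sim2 read each where the 5 DKO_EP libraries held 159 to 243. Onecut2 had 0 to 222 reads in the same DKO_EE libraries and 259 to 478 in DKO_EP. Lhx2 had 0 to 2 against 4 to 32 reads. Pou4f1 had 0 to 12 against 7 to 45, so its reads overlapped. The part of Lars2-rich libraries in these levels was not tested.

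The levels of the 4 genes were compared per kilobase of exon, on the pooled normalized count, since Onecut2 has 16.2 kb of exon against 4.22 to 4.67 kb for the others. In intact DKO the levels were 62.5 per kb for Sim2, 35.9 for Onecut2, 8.40 for Lhx2 and 5.71 for Pou4f1. In intact DKO_EP they were 89.1 for Sim2, 39.6 for Onecut2, 10.4 for Pou4f1 and 6.83 for Lhx2. In intact DKO_EE Onecut2 was the highest at 2.92, above Sim2 at 1.23, Pou4f1 at 0.329 and Lhx2 at 0.0657.

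Over the 11 groups, DKO_EE at castrated endstage was lowest for Sim2, Onecut2 and Pou4f1, and DKO_EE at intact endstage was lowest for Lhx2. The highest mean was in DKO_EP intact endstage for Sim2, castrated DKO for Onecut2, TKO with CPI1688 for Lhx2 and castrated DKO_EP for Pou4f1. Most neighbours in these orders differed by less than the larger of their SDs. For Lhx2 the step from castrated DKO at 4.43 to the 12-week DKO_EE group at 1.78 was larger than either SD, and it divided the 6 endstage and TKO groups outside DKO_EE from the other 5. The next step, to 12-week DKO_EP at 0.93, was also larger. For Pou4f1 the steps from 12-week DKO_EP at 2.81 to 12-week DKO_EE at 2.26 and on to intact DKO_EE at 0.58 were also larger, and for Sim2 and Onecut2 no single step was.

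At 12 weeks, in animals that the choice did not use, the 3 genotypes were compared with limma, adjusted over all 16626 genes with any spread. The limma test called 0% of genes between DKO_EE and DKO and 0% between DKO_EP and DKO, while 796 and 449 had p under 0.05 before adjustment, and limma-voom on the recovered reads also called 0, with 739 and 405. With all 11 groups in 1 fit, limma called 8 genes higher and 76 lower in DKO_EE and 0 higher and 4 lower in DKO_EP, none of them among the 4 factors. Sim2 had log2 values of 7.01, 3.83, 3.88 and 5.34 in DKO, 2.87, 3.08, 0 and 0 in DKO_EE, and 1.19, 6.47, 1.64 and 7.17 in DKO_EP. The DKO_EE animals lay below all DKO animals, and the log2 fold change of -3.53 (SE 1.41) had an unadjusted p of 0.0286 and an adjusted p of 0.975 by limma. It therefore did not pass the test. The DKO_EP animals spanned both other groups (log2 fold change from DKO -0.90, SE 1.41).

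Sim2 at 12 weeks moved with skeletal muscle genes. In the 4 libraries with 34 to 139 Sim2 reads, DKO replicates 1 and 4 and DKO_EP replicates 2 and 4, the mean of 10 skeletal muscle genes was 12.74, 11.96, 12.71 and 12.87. DKO replicates 2 and 3, with 9 and 13 Sim2 reads, had 8.22 and 8.89, and the remaining 6 libraries, with 0 to 7 reads, had 2.51 to 5.49. All 4 DKO_EE libraries were among those 6. Sim1, the close relative of Sim2, also had reads at 12 weeks, with 3 to 37 in DKO and up to 93 in DKO_EP, and at most 10 in any endstage library outside TKO. The part of muscle in the 12-week Sim2 values was not tested. At endstage the picture was different, since the skeletal muscle mean was at most 3.49 in all intact and castrated DKO, DKO_EE and DKO_EP libraries, including those with 121 to 594 Sim2 reads.

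The other factors did not separate the genotypes at 12 weeks. Onecut2 ranged widely within each genotype, at 3.81, 9.11, 10.49 and 5.30 in DKO, 2.05, 10.04, 0 and 12.28 in DKO_EE, and 0, 8.71, 11.71 and 4.04 in DKO_EP. One DKO_EE animal held 5915 reads and another none, so Onecut2 RNA was present in DKO_EE tissue at this age. Over the 3 genotypes, 12-week libraries with 376 to 5915 Onecut2 reads had means of 11 basal epithelial genes of 9.90 to 11.39. Those with 0 to 33 reads had 8.64 to 9.81. The part of basal cells in the 12-week Onecut2 values was not tested. The log2 fold changes were -1.08 for DKO_EE (SE 3.05) and -1.06 for DKO_EP (SE 3.05). Lhx2 had 0 to 4 reads and Pou4f1 had 3 to 8 reads in every 12-week library, so differences in these 2 were hardly detectable at this depth. For DKO_EE against DKO they were 1.20 (SE 0.58) and -0.58 (SE 0.37), with an adjusted p of 0.975 each by limma.

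**Figure D2:**
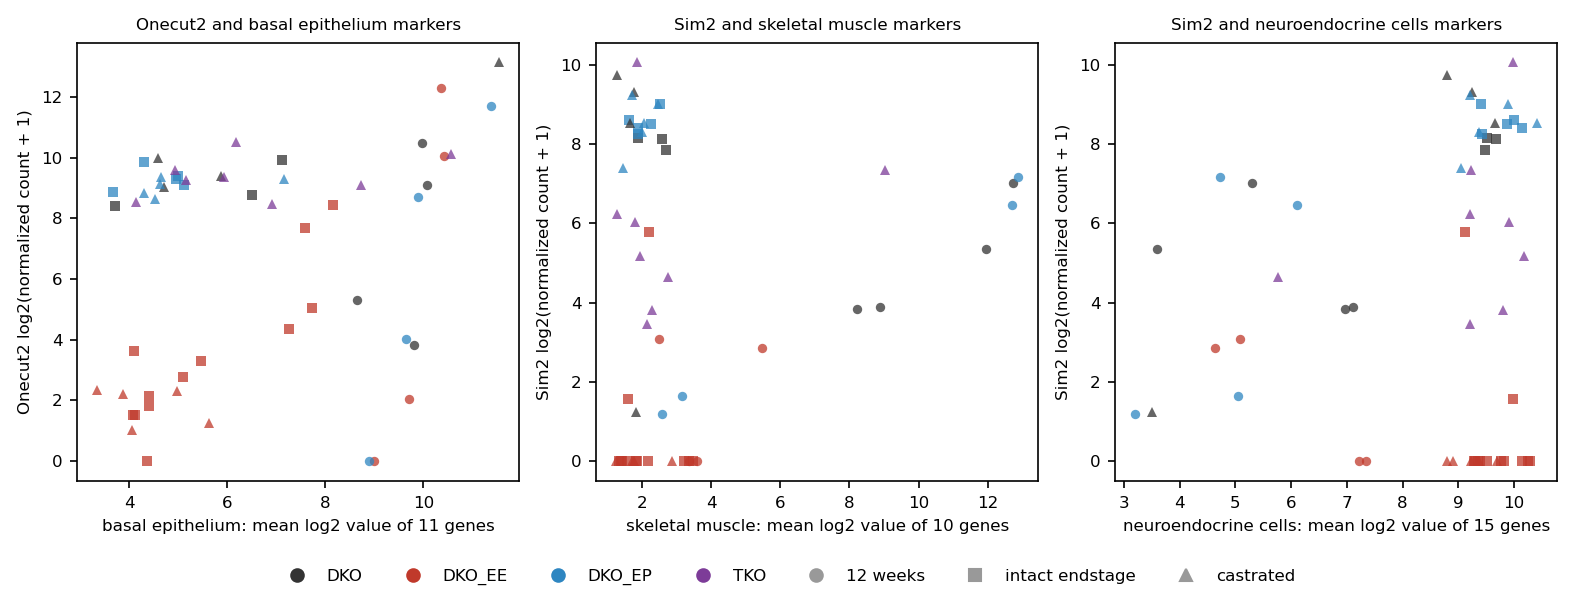
Each point is 1 library, colours are genotypes and shapes are settings, and both axes are log2 values, with the horizontal axis the mean over the marker genes of a cell type. Red squares (intact DKO_EE) rise with basal genes for Onecut2, and the circles (12 weeks) rise with skeletal muscle genes for Sim2. Red endstage points in the right panel lie at neuroendocrine levels as high as those of the other genotypes. They lie at the bottom of that panel, except intact DKO_EE library 7 at 1.56 and library 8 at 5.78.

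Where Onecut2 RNA remained in intact DKO_EE tumours, genes of other epithelia were also higher, among them basal genes such as Krt5 and Trp63. The 4 libraries with 44, 180, 222 and 19 Onecut2 reads had basal means of 7.72, 7.59, 8.15 and 7.27. The other 8 libraries, with 0 to 13 reads, had 4.07 to 5.46. The mean of 6 seminal vesicle genes was 3.70, 4.51, 4.56 and 3.51 in the same 4 libraries and 0.45 to 2.62 in the other 8. The mean of 12 luminal genes was 9.05, 9.09, 9.29 and 8.33 in the 4 and 7.84 to 8.65 in the other 8. By their names, libraries 3, 6 and 8 of these 4 were AP pieces and library 1 was a PT piece, while library 12, also AP, had 2 Onecut2 reads. A single animal showed both states: its first library had no Onecut2 read and a basal mean of 4.36, and its second had 222 reads and 8.15. The first was named DP and the second AP, so the kind of piece and the state cannot be told apart in this animal. The neuroendocrine means of these 2 libraries were 9.51 and 9.39. The part of basal, luminal or seminal vesicle cells in the Onecut2 values was not tested. At endstage without DKO_EE, Onecut2 was between 8.42 and 9.99 in every library but castrated DKO replicate 2, at basal means from 3.66 to 7.15.

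Pieces of 1 animal gave the spread within an animal. The 2 pieces of each animal carried different names, such as AP and DP, so this spread includes any difference between kinds of piece. In the 2 DKO_EP animals with 2 libraries, Sim2 differed by 0.10 and 0.78 and Onecut2 by 0.76 and 0.41, whereas Lhx2 differed by 1.39 and 1.33 and Pou4f1 by 2.72 and 0.46. In the 4 DKO_EE animals with 2 libraries the largest differences were 8.44 for Onecut2, 4.22 for Sim2, 3.49 for Pou4f1 and 2.15 for Lhx2. The DKO_EE piece with 53 Sim2 reads had 19 Onecut2 reads and none of Lhx2 or Pou4f1. DKO_EE library 12 had 2 Onecut2, 2 Lhx2 and 12 Pou4f1 reads and none of Sim2. Remaining reads of some of the factors thus shared a piece, but no piece held reads of all 4.

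The rise of the factors from 12 weeks to endstage was tested in DKO_EP animals, which the choice did not use, with all 11 groups in 1 limma fit. The endstage DKO and DKO_EE animals that made the choice therefore add to the estimate of the spread. Against a background in which 21.3% of all genes rose from 12 weeks to intact endstage, 2 of the 4 factors rose. Lhx2 went from 0, 1.04, 1.64 and 1.02 at 12 weeks to 5.41, 3.92 and 4.86, a log2 fold change of 3.80 (SE 0.71, adjusted p = 4.89e-05 by limma). Sim2 went from the 4 values given above to 8.44, 8.63 and 8.60, a change of 4.44 (SE 1.37, adjusted p = 0.00823 by limma). Every endstage animal lay above every 12-week animal for both, and how many of all genes did so was not counted. Onecut2 at 3.20 (SE 1.95, adjusted p = 0.182) and Pou4f1 at 2.26 (SE 1.12, adjusted p = 0.0982) did not pass this limma test. With only the 2 groups compared in the fit, Pou4f1 passed (adjusted p = 0.0171 by limma).

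From 12 weeks to castrated DKO_EP endstage, 25.7% of all genes rose, and 3 of the 4 factors did. Lhx2 reached 5.55, 5.87, 5.60, 6.15 and 5.82, with a change of 4.87 (SE 0.62, adjusted p = 3.92e-08 by limma). Sim2 reached 7.40, 8.52, 9.02, 8.30 and 9.23, with a change of 4.38 (SE 1.21, adjusted p = 0.00244 by limma). Pou4f1 went from 2.89, 2.06, 3.24 and 3.04 to 6.51, 8.71, 5.88, 6.13 and 5.38, with a change of 3.71 (SE 0.98, adjusted p = 0.0017 by limma). No animals overlapped for these 3, and the share of all genes without overlap was not counted. Onecut2 changed by 2.94 (SE 1.71, adjusted p = 0.146 by limma), with 12-week animals from 0 to 11.71 on both sides of the endstage range. Without 12-week replicate 3, which had 3168 reads, the Onecut2 changes were 5.07 (adjusted p = 0.0341) to intact and 4.80 (adjusted p = 0.0201) to castrated endstage by limma. Neuroendocrine genes moved over the same interval, with means of 3.21 to 6.10 at 12 weeks and 9.05 to 10.41 at castrated endstage, and their part in these changes was not tested.

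Between castrated and intact endstage DKO_EP tumours limma called 9.87% of genes and none of the 4. At that share, no call among 4 genes does not set them apart. The changes were -0.07 for Sim2 (SE 1.31), -0.27 for Onecut2 (SE 1.87), 1.07 for Lhx2 (SE 0.68, adjusted p = 0.437 by limma) and 1.46 for Pou4f1 (SE 1.07, adjusted p = 0.543 by limma). The castrated mice were 34 to 37 weeks old and the intact ones 39 to 52 weeks. Lars2 took at most 0.00482% of reads in the castrated and 14.2% to 21.6% in the intact libraries. Castration cannot be told apart from these differences.

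**Figure D3:**
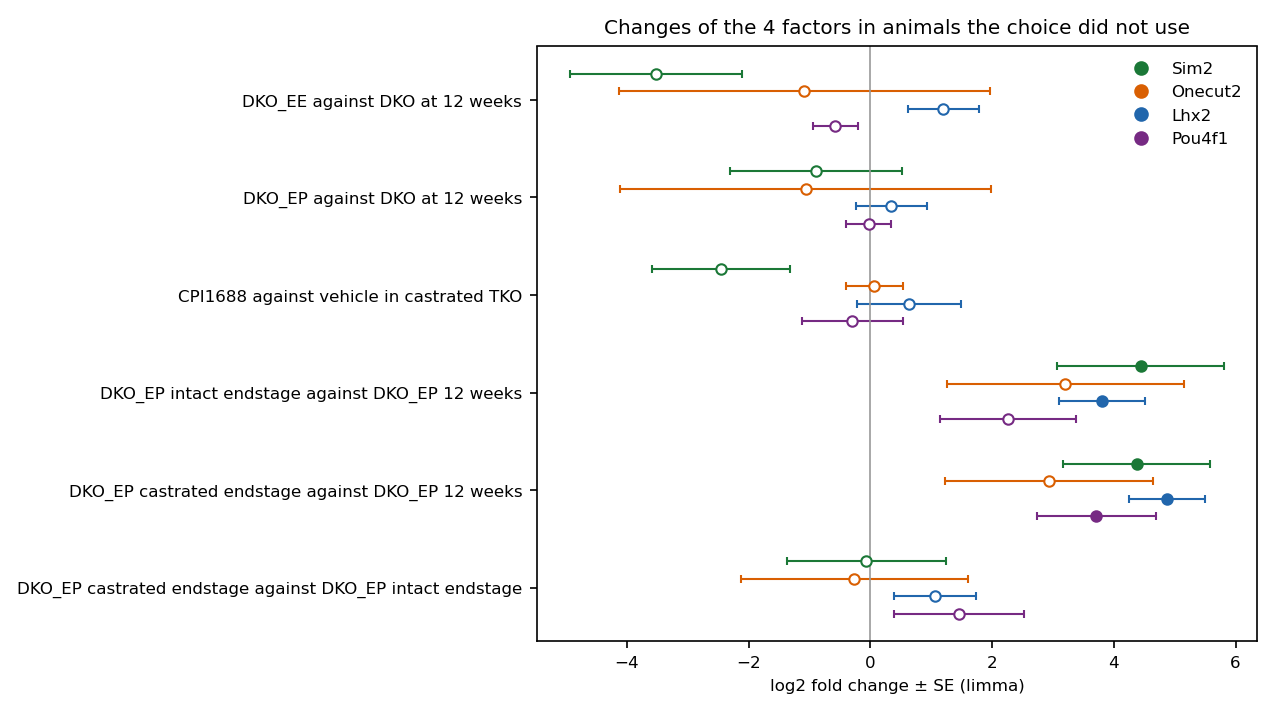
Points are log2 fold changes and bars are SEs from limma for the 4 factors in 6 comparisons. Filled points passed an adjusted p of 0.05, which were Sim2 and Lhx2 from 12 weeks to both DKO_EP endstages and Pou4f1 to the castrated one.

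In castrated TKO tumours all 4 factors were present with and without the Ezh2 inhibitor. Limma called 0% of genes between CPI1688 and vehicle, with 337 genes at p under 0.05 before adjustment, and limma-voom also called 0, with 324. Sim2 was 4.66, 7.34, 10.06 and 6.23 with vehicle and 5.18, 6.04, 3.81 and 3.45 with CPI1688. The groups overlapped, and the log2 fold change of -2.45 (SE 1.13) had an unadjusted p of 0.0605 and an adjusted p of 1.0 by limma. The change was -1.46 without vehicle replicate 3 and -3.26 without vehicle replicate 1, and neither passed. The vehicle animal at 10.06, replicate 3, held 933 Sim2 reads, and the animal at 7.34 had a skeletal muscle mean of 9.04, against at most 2.77 in the other 7. Onecut2 was 10.11, 9.11, 8.53 and 9.60 with vehicle and 9.36, 9.26, 10.51 and 8.49 with CPI1688 (log2 fold change 0.07, SE 0.47). Lhx2 was 2.67, 5.65, 5.97 and 6.65 with vehicle and 6.53, 6.30, 5.01 and 5.63 with the inhibitor (0.63, SE 0.85). Pou4f1 was 2.33, 4.29, 5.27 and 4.90 with vehicle and 2.78, 5.49, 4.06 and 3.28 with the inhibitor (-0.30, SE 0.83). Vehicle replicate 1 was lowest for Sim2, Lhx2 and Pou4f1 and highest for Onecut2 of its group, as castrated DKO replicate 2 was, and it had a neuroendocrine mean of 5.77 and a basal mean of 10.56.

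Close relatives of the 4 factors were examined in the 2 endstage comparisons of DKO_EE with DKO, in the animals that made the choice. These relatives are not among the 4 chosen. They were listed with earlier results of these data known, so their tests are not independent of the choice. At intact endstage limma called 1.12% of genes higher and 0.541% lower in DKO_EE. Onecut1, the liver and pancreas paralog of Onecut2, was lower: it had 20, 5 and 41 reads in the 3 DKO animals and none in the 12 DKO_EE libraries. The log2 fold change was -3.98 (SE 0.57, adjusted p = 0.0046 by limma), and the call was kept without any single animal of either group. In castrated mice Onecut1 had 4, 0, 80 and 12 reads in DKO and 1 read in all 5 DKO_EE libraries, a change of -3.12 (SE 1.11, adjusted p = 0.104 by limma) that did not pass. In DKO_EP Onecut1 had 2, 4, 2, 2 and 0 reads in the 5 intact libraries, with a mean of 1.67 against 3.98 in intact DKO, and 3, 19, 2, 29 and 24 reads in castrated mice.

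Pou4f2, the retinal ganglion cell paralog of Pou4f1, fell at castrated endstage, where limma called 3.42% of genes higher and 4.3% lower. It had 35, 0, 12 and 98 reads in DKO and none in the 5 DKO_EE libraries, a change of -4.11 (SE 1.04, adjusted p = 0.0309 by limma). The call was lost without any one of the 5 DKO_EE animals or without DKO replicates 1 or 4, with an adjusted p up to 0.0825. At intact endstage the change of -2.09 (SE 0.74, adjusted p = 0.169 by limma) did not pass, and 1 DKO_EE library held 83 reads. Sim1 was at 0 in all 3 intact DKO libraries and did not pass in either setting.

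None of the partners of the factors passed the test, but they did not all keep their level. Arnt, the common partner of bHLH-PAS proteins, had means of 9.11 in DKO and 9.25 in DKO_EE at intact endstage and 9.41 and 9.42 in castrated mice. Arnt2, its neural form, had 7.89 and 6.94 at intact and 8.22 and 5.62 at castrated endstage, with log2 fold changes of -0.95 (SE 0.70) and -2.59 (SE 1.03, adjusted p = 0.14 by limma). In castrated mice Arnt2 was 9.29, 4.44, 9.40 and 9.73 in DKO, 2.81 to 6.90 in DKO_EE and 8.92 to 9.86 in DKO_EP. DKO replicate 2, with 4.44, was the one DKO animal within the DKO_EE range. Ldb1, the LIM cofactor, had 9.0 and 9.27 and then 9.58 and 9.59. Isl1, a LIM homeodomain factor, had log2 fold changes of -0.79 (SE 1.19) and -1.96 (SE 0.82), and Ldb2 had -0.11 (SE 0.69) and -0.82 (SE 0.50).

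Across 7 lists of related factors few genes were called. The lists were chosen with earlier results of these data known, and they hold 119 genes besides the 4. At intact endstage 1 of 105 tested genes was higher in DKO_EE and 2 were lower, against the 1.12% and 0.541% of all genes. No call was made among 17 LIM factors and cofactors, 12 POU factors, 27 neural and neuroendocrine factors or 15 prostate epithelial factors. Onecut1 was the 1 of 5 CUT factors called, the clock factor Arntl was the 1 of 18 bHLH-PAS genes called (0.88, SE 0.18, adjusted p = 0.0247 by limma), and Ezh2 was the 1 of 11 Polycomb repressive complex 2 genes called (-1.34, SE 0.26, adjusted p = 0.0194 by limma). Arntl and Ezh2 lost the call without any one of the 3 DKO animals, with adjusted p up to 0.113 and 0.104, and with age as a covariate, with 0.0584 and 0.0683. The list medians ran from -0.48 for LIM factors to 0.33 for prostate factors, beside -0.03 for all genes. With limma-voom the calls over all genes were 159 higher and 173 lower, against 187 and 90 with limma on the deposited values.

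At castrated endstage 5 of 104 tested list genes were higher in DKO_EE and 7 were lower, against the 3.42% and 4.3% of all genes. Lhx6, a LIM homeodomain factor of interneurons, had a log2 fold change of -4.07 (SE 0.55, adjusted p = 0.00126 by limma) and was the only call among 16 LIM genes. Of 12 POU factors 1 was lower, Pou4f2, and of 5 CUT factors none was called. Genes called lower among 15 prostate epithelial factors included Gata3 at -3.01 and Sox9 at -4.04. Of 27 neural factors Sox3 at -4.56 and Hand2 at -2.55 were lower and Hes6 at 1.96 was higher. Of 18 bHLH-PAS genes Npas1 at 3.48 and Arntl at 0.73 were higher, and of 11 Polycomb repressive complex 2 genes Suz12 was higher at 0.57. The list medians ran from -0.64 for CUT factors to 0.20 for neural factors, beside -0.0035 for all genes.

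Single animals decided several of these castrated calls. Lhx6, Gata3 and Sox9 kept theirs without any one of the 9 animals, with adjusted p up to 0.00648, 0.00922 and 0.0496. With age as a covariate, Lhx6 (adjusted p = 0.00505 by limma) and Gata3 (0.0171) kept the call and Sox9 lost it (0.126). Among fits that left out 1 animal, Sox3 kept its call only without DKO replicate 2 or DKO_EE replicate 3, Hand2 only without DKO replicate 3, and Hes6 only without DKO replicates 2, 3 or 4. Suz12 kept it only without DKO replicates 2, 3 or 4, and Arntl only without DKO replicate 4 or DKO_EE replicate 5. Npas1 lost it without DKO replicate 1 or DKO_EE replicates 1 or 5. The listed factors Lhx4, Lhx5, Lhx9, Lmx1a, Pou1f1, Pou4f3, Onecut3, Neurod2, Neurod6, Neurog1 and Neurog2 were not analysed here.

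The genes on either side of the factors were examined in the same 2 endstage comparisons, in which the factors themselves carry no test. The nearest measured protein-coding genes on each side were Cldn14 and Hlcs for Sim2, St8sia3 and Fech for Onecut2, Dennd1a and Nek6 for Lhx2, and Ednrb and Rnf219 for Pou4f1. None of the 8 was called in either endstage comparison of DKO_EE with DKO. Over all genes limma called 1.12% higher and 0.541% lower at intact endstage, and 3.42% and 4.3% at castrated endstage. With shares this small, no call among 8 genes does not set them apart from other genes. Hlcs, the biotin ligase gene that begins 1.8 kb from the end of Sim2, differed by 0.15 (SE 0.16) at intact and 0.03 (SE 0.14) at castrated endstage. Rnf219, which lies 9.5 kb from Pou4f1, differed by -0.06 (SE 0.24) and 0.07 (SE 0.20). Cldn14 differed by -1.40 (SE 0.71) and -1.22 (SE 1.06), and Nek6 by -0.57 (SE 0.34) and -1.33 (SE 0.46, adjusted p = 0.0944 by limma). St8sia3 differed by -1.19 (SE 1.34) and 1.0 (SE 1.59), and Ednrb by -0.69 (SE 0.49) and 0.34 (SE 0.50), so both took opposite signs in the 2 settings. Fech differed by 0.19 (SE 0.20) and 0.10 (SE 0.15), and Dennd1a by -0.13 (SE 0.27) and 0.48 (SE 0.25).

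The genes most like each factor were found by the root-mean-square difference between the 11 centred group means, in log2 units, where a smaller value means a closer pattern. Gpr165, an orphan G protein-coupled receptor gene, was among the 3 closest for Sim2 (1.42), Onecut2 (1.10) and Pou4f1 (0.76). Slitrk6, a neuronal membrane protein gene, was among the closest for Sim2 (1.76) and Pou4f1 (0.88). The others were the glycosyltransferase gene Mgat4c for Sim2 (1.58), the glutamate receptor gene Grm7 (1.04) and the axon guidance receptor gene Robo2 (1.19) for Onecut2, the potassium channel gene Kcnb2 (0.73), Vstm2b (0.75) and the cell adhesion gene Cntn4 (0.81) for Lhx2, and Igdcc3 (0.84) for Pou4f1. These genes were picked for their pattern over all groups, so their levels are a description.

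Gpr165 had means of 5.15 in intact DKO, 0.57 in DKO_EE and 6.62 in DKO_EP, and 6.07, 1.06 and 5.46 in castrated mice. Mgat4c had 6.73, 0.57 and 7.26 at intact and 5.69, 0.23 and 4.09 at castrated endstage. Vstm2b had 5.64, 0.42 and 4.35, and then 5.08, 1.98 and 6.64. Slitrk6 and Kcnb2 were lower in DKO_EE but still at a clear level, with 8.95, 4.76 and 9.19 for Slitrk6 and 8.87, 5.54 and 8.96 for Kcnb2 in intact DKO, DKO_EE and DKO_EP. At 12 weeks the means in DKO, DKO_EE and DKO_EP were 2.41, 1.82 and 2.04 for Gpr165 and 1.17, 1.35 and 0.89 for Mgat4c. Other genes of the group lay further apart at that age. Kcnb2 had 4.70, 5.30 and 3.63, with every DKO_EP animal below every DKO animal. Grm7 had 4.19, 2.87 and 2.92, Igdcc3 had 3.57, 2.21 and 3.0, and Robo2 had 6.12, 7.17 and 6.10.

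**Figure D4:**
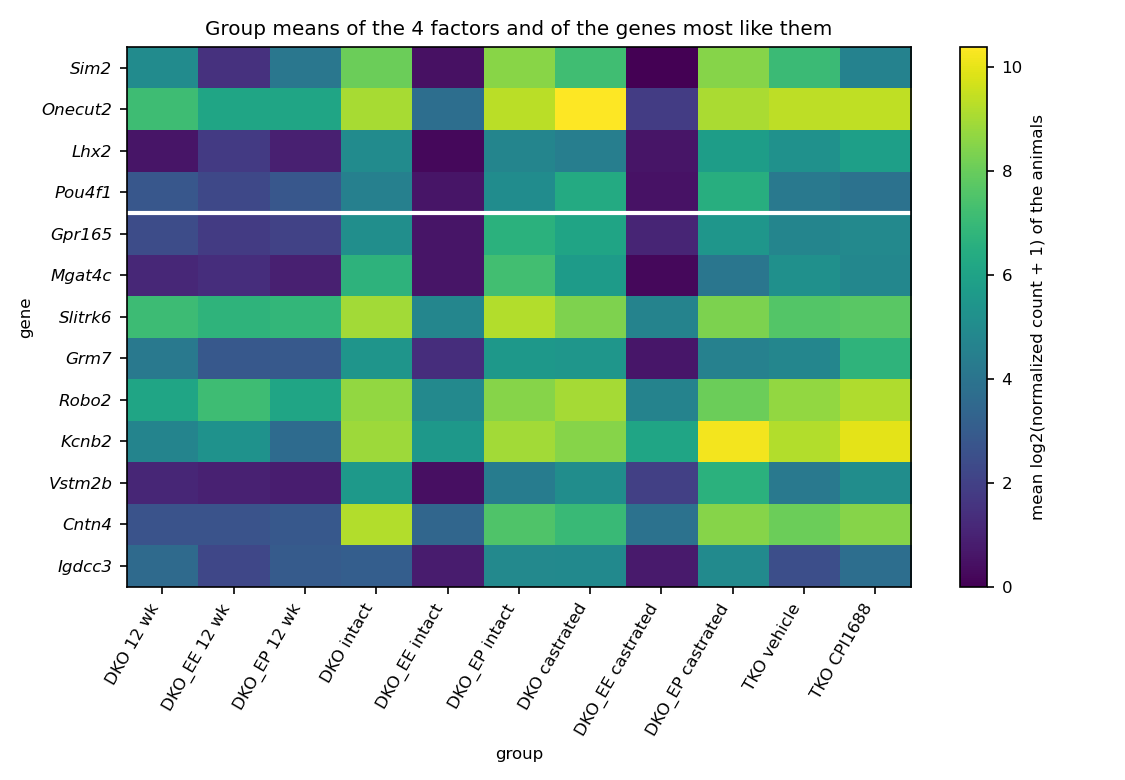
Colour is the mean log2 of the normalized count plus 1 over the animals of a group, with the 4 factors above the white line and the 9 genes nearest to them in pattern below it. The 2 DKO_EE endstage columns are the darkest of their row for Sim2, Onecut2, Pou4f1, Gpr165, Mgat4c, Slitrk6, Grm7, Robo2 and Igdcc3. For Lhx2 the 12-week columns are also dark, at 0.58 in DKO, 1.78 in DKO_EE and 0.93 in DKO_EP. The Lhx2 means are 0.23 in intact and 0.61 in castrated endstage DKO_EE.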

How the data were processed

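RNA was extracted from prostate tumour tissue and sequenced after ribosomal RNA removal, per the labels' protocols. The submitters' processing notes name STAR, RSEM, DESeq2, limma, FastQC and the builds mm10 and GRCm38, with roles and versions not given in the sources used here. The deposited values are log2 of a normalized count plus 1 for 16772 genes, and nothing says how strand was counted. Of 56 columns, 2 matched no sample and were not used. With the logarithm and the 1 removed, 100% of values were whole multiples of 1 step per library within 0.05 of a read, which gave the read numbers, and 8.92% of values were 0. At these depths genes with few reads carry counting error, and the intervals and the limit of 3 reads cover counting error alone.

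The 54 libraries were grouped by genotype, treatment and age from the labels. Libraries that shared identifier, genotype and age were taken as pieces of 1 animal and averaged, which left 48 animals. Comparisons used limma 3.58.1 in R 4.3.3 (lmFit, contrasts.fit and eBayes with trend) on the deposited log2 values, with Benjamini-Hochberg adjustment over all genes with any spread and a threshold of 0.05. Each 12-week, endstage or TKO comparison was fitted with the groups of its setting, and comparisons between settings with all 11 groups. The fit was tested on simulated data. Figures and tables used Python 3.11.15, pandas 2.3.3, scipy 1.17.1 and matplotlib 3.10.9. Positions are from GENCODE M21.

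The 4 members and all gene lists were chosen with earlier results of these data known. Genes were named by a rule: the 4 factors, their paralogs and partners, Ezh2 and Chga, the 3 genes most like each factor, and up to 4 called genes of each list with the smallest adjusted p. Some listed genes that passed the test are in the counts but not reported here by name. Unnamed gene models and antigen receptor segments were left out of the likeness ranking. The genes neighbouring the factors were added after the data were seen. Alternatives dropped the 25% of genes with the lowest means, used an offset of 8, quantile normalization, limma-voom on the recovered reads, array weights, other groups in the fit, age as a covariate, the first library of each animal, or left out each animal in turn. Leaving out intact DKO_EE animals for the lists, and single libraries for the pooled ratios, was added after the data were seen.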

Additional observations from a re-analysis of the deposited data

Results flagged for a closer look

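Each factor was examined in each group of 4 to 8 animals with any spread, which gave 35 sets of values. In 6 of them an animal's distance to the nearest other animal took up most of the range (Dixon's 95% limit). Chance flags about 1 in 20 sets if values are normally spread. That rate does not hold near 0, since any animal with a read is flagged where all others are at 0. In intact endstage DKO_EE, the animal with libraries 7 and 8 had a Sim2 log2 value of 3.67, and the other 7 were at 0. In the same group, the animal with libraries 11 and 12 had a Pou4f1 value of 2.69, and the others had 0 to 0.79. In castrated DKO, replicate 2, of 99 weeks, had a Sim2 value of 1.25 against 8.53 to 9.74 in the others and a Pou4f1 value of 0 against 8.20 to 8.86. At 12 weeks, DKO replicate 1 had an Lhx2 value of 2.33, from 4 reads, and the other 3 were at 0. DKO_EE replicate 4 had a Pou4f1 value of 1.82, from 3 reads, against 2.38 to 2.46.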

How the results depend on the processing

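Of the changes that passed the test, Sim2 and Lhx2 in both DKO_EP comparisons with 12 weeks and Pou4f1 in castrated DKO_EP kept direction and call under every alternative that gave a value. Without the 25% of genes with the lowest means, Lhx2 and Pou4f1 were not tested. Array weights brought Onecut2 past the threshold at 4.11 to intact and 3.90 to castrated DKO_EP endstage, Pou4f1 at 2.64 to intact endstage, and Lhx2 at 1.26 between castrated and intact DKO_EP. Pou4f1 also passed to intact endstage with only the 2 groups in the fit (2.26) and when only first libraries were used (2.79). The cause was not tested.

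Directions turned only among changes that did not pass. Against DKO at 12 weeks, Onecut2 in DKO_EE was 0.0848 with array weights, Sim2 in DKO_EP was 1.02 with array weights, and Pou4f1 in DKO_EP was 0.37 after quantile normalization. Lhx2 with CPI1688 was -0.0091 with array weights. Leaving out each animal gave -3.15 to 0.95 for Onecut2 in DKO_EE, -1.92 to 0.0786 for Sim2, -2.93 to 0.98 for Onecut2 and -0.20 to 0.22 for Pou4f1 in DKO_EP. With CPI1688 it gave -0.30 to 0.37 for Onecut2, -0.22 to 1.10 for Lhx2 and -0.92 to 0.0761 for Pou4f1. It gave -0.25 to 0.21 for Sim2 between castrated and intact DKO_EP. For Onecut2 it gave 1.16 to 5.07 to intact and 0.90 to 4.80 to castrated DKO_EP endstage. Where this left a group with few animals, they were assumed to vary like the other groups.

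Of the 7 lists at intact endstage, the genes higher in DKO_EE numbered 7 with array weights, 2 with all 11 groups and 0 with age as a covariate, and the genes lower numbered 5 with array weights and 1 with the low genes left out, with first libraries or with age. At castrated endstage the higher genes numbered 3 after quantile normalization and 0 with age, and the lower ones 3 without low genes, 16 with array weights and 4 with age. Leaving out each animal gave 0 to 4 higher and 1 to 3 lower at intact, with 0 and 1 without any one DKO animal and 4 higher without DKO_EE replicate 4, and 1 to 6 higher and 3 to 11 lower at castrated endstage. With limma-voom, Sox3 lost its call (adjusted p = 0.0918). Over all genes, DKO_EE against DKO at intact endstage had 721 higher and 587 lower with array weights, 82 and 34 with first libraries, and 55 and 26 with age. At castrated endstage it had 1110 and 1297 with array weights and 193 and 261 with age, against 566 and 712. No paired analysis was possible because the labels give the groups no shared replicate numbers.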
